A study of Rattus norvegicus with 12 samples.

Results

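Rat kidneys taken after cardiopulmonary bypass with nitrite (CPB+Nitrite, 4 libraries) were compared with kidneys of sham animals (sham, 4 libraries) by RNA sequencing, to see which transcripts still differed from control when nitrite accompanied bypass. These 8 libraries are 8 of the 12 in the series and were taken by their titles. The other 4 came from bypass without nitrite (CPB), and their levels are given beside some genes for orientation. All samples are labelled kidney, of Rattus norvegicus, and which part of the kidney was taken is not given. The labels give no strain, age, nitrite dose, bypass duration or time of sampling, and do not say whether sham animals received anything in place of nitrite. Nor do they state that replicates are separate animals, so p-values measure only the spread between samples, estimated over all 12 libraries of the series.

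In cardiopulmonary bypass a heart-lung machine takes over the circulation, and blood meets artificial surfaces, shear and altered perfusion. The kidney can be injured in this setting. Its proximal tubule cells depend on mitochondrial oxidation and respond to injury by switching on repair and inflammatory genes. Nitrite is an oxidation product of nitric oxide that haem proteins and molybdenum enzymes can reduce back to nitric oxide, a signal that relaxes vessels and is otherwise made from arginine by nitric oxide synthases.

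Each library held between 16.8 and 25.8 M reads (M, mega), and levels are scaled counts per M reads (CPM). Nephron markers fitted the label of kidney: the thick ascending limb gene Umod was at 7016, 5619.6, 4957 and 6296 CPM in sham 1 to 4, and the phosphate transporter Slc34a1 of the proximal tubule at 1733, 1284, 1544 and 1819 CPM. The 4 CPB+Nitrite libraries varied more among themselves than the sham libraries, with a median SD over genes of 0.43 against 0.23 on the log2 scale. The CPB libraries had a median SD of 0.26, and they enter the estimate of the spread that the test shares between groups. On the first principal component, which held 52.4% of the variance, CPB+Nitrite 1 and 4 lay at 42.42 and 27.27, and CPB+Nitrite 2 and 3 at -49.81 and -33.32, with sham between -73.95 and -37.44. CPB+Nitrite 2 stood apart. It held 4344, 299, 6502 and 3759 CPM of Umod in the order of CPB+Nitrite 1 to 4, so its own value was the lowest, and of the haemoglobin gene Hba-a1 the 4 libraries held 170.4, 4151, 206 and 172 CPM. The urea transporter Slc14a2 of the inner medulla was at 0.0845, 188, 17.1 and 77.8 CPM in the same order. It varied in sham too, at 2.18, 6.23, 5.07 and 4.4 log2 CPM (prior count 2) in sham 1 to 4. On that scale CPB+Nitrite 1 to 4 were at -2.52, 7.555, 4.1 and 6.28, so sham 2 was close to CPB+Nitrite 4. List counts without this library are given below where they changed by more than 1.5 times or where it brought calls in a direction that otherwise had none. Sham 3 had the highest position of the sham libraries on that component and lay above CPB+Nitrite 2.

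Of 14664 genes tested, 705 differed between CPB+Nitrite and sham, 4.81% of all. In these, 565 genes were higher with bypass and nitrite (3.85%) and 140 lower (0.955%). Genes were tested with the quasi-likelihood method of edgeR in a fit of all 12 libraries, and adjusted p (Benjamini-Hochberg) under 0.05 was required. Among the higher genes 434 differed by more than 2-fold, and among the lower genes 69. The median log2 change was 0.04 over all genes tested, 1.43 over the genes called higher and -0.98 over those called lower. By annotation, 544 higher and 134 lower calls were protein-coding genes, and 19 and 6 were long non-coding RNAs.

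**Figure D1:**
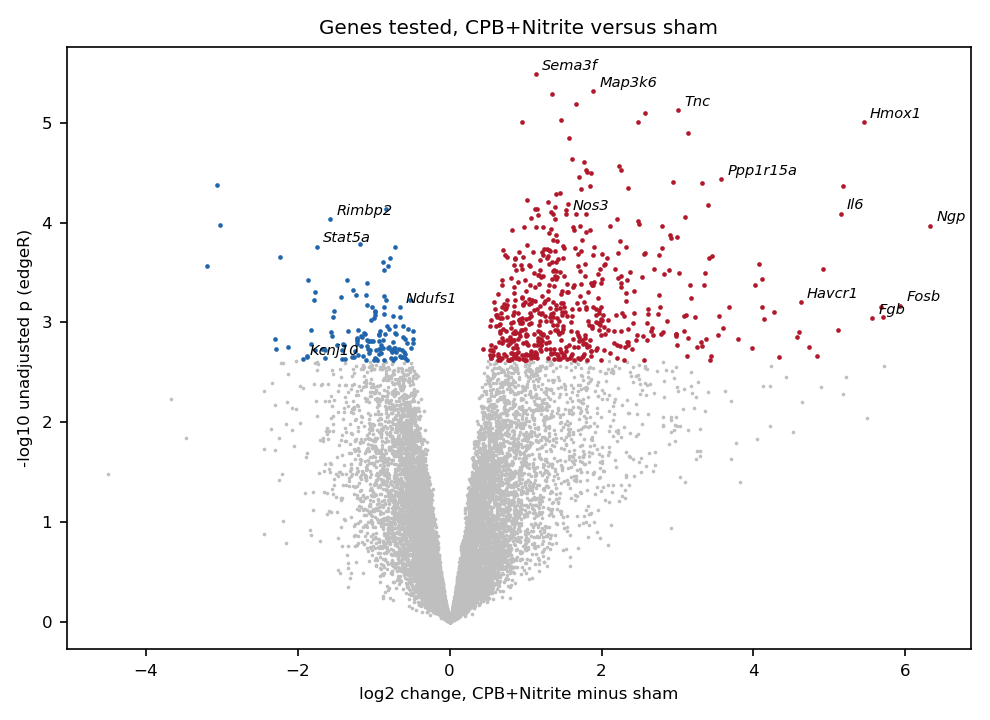
Log2 change between CPB+Nitrite and sham (x axis) against the -log10 of the unadjusted edgeR p (y axis) for the 14664 genes tested. Red points are the 565 genes called higher, blue points the 140 called lower and grey points the others, and the largest called increases reach further from 0 than the largest called decreases.

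The 8 libraries did not overlap in 827 genes that were higher in every CPB+Nitrite library than in every sham library (5.64%) and in 861 genes that were lower (5.87%). Of the called genes, the groups did not overlap in 409 of the 565 that were higher and in 126 of the 140 that were lower. CPB+Nitrite 3 lay closest to sham in the called genes. It held the highest of the 4 CPB+Nitrite values in only 3 of the 565 higher genes, against 182 in CPB+Nitrite 1, 89 in CPB+Nitrite 2 and 291 in CPB+Nitrite 4. The median level of the genes called higher, relative to the sham mean, was 1.52, 1.18, 0.61 and 1.80 log2 units in CPB+Nitrite 1 to 4, and that of the genes called lower -1.27, -1.01, -0.47 and -1.21.

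The number of calls depended strongly on which libraries were in the fit. Without CPB+Nitrite 3 the test called 1620 genes higher and 1356 lower, and without CPB+Nitrite 2 it called 1324 and 472. Without CPB+Nitrite 1 it called 67 and 4, and without CPB+Nitrite 4 it called 0 (2827 genes had an unadjusted p under 0.05). Without sham 1, 2 or 4 it called 3, 0 and 1 genes (3428, 3023 and 3215 at an unadjusted p under 0.05), and without sham 3 it called 389 higher and 38 lower. Leaving out CPB 1, 2, 3 or 4, which enter only the filter, the scaling and the shared estimate of the spread, left 237, 89, 164 and 191 genes called higher and 37, 9, 16 and 23 called lower. A fit of the 8 libraries alone called 0 genes (3262 at an unadjusted p under 0.05, smallest adjusted p = 0.0994), while DESeq2 called 1434 higher and 710 lower and limma voom with sample weights 1599 and 1271. All 705 called genes kept their sign in each fit that left out 1 library. Every gene list described below had 0 members called without sham 1, sham 2, sham 4 or CPB+Nitrite 4, and its count without the other CPB+Nitrite libraries is given where 2 or more members were called and it moves by more than 1.5 times. The count of each list is to be read beside the 3.85% of all genes tested that rose and the 0.955% that fell. Without CPB+Nitrite 3 some lists whose called members had all risen also had members called lower: 2 each among cell death, p53 and lipid synthesis genes, 3 among circadian genes, and 1 each among hypoxia-inducible factor targets and metallothionein and zinc genes.

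**Figure D2:**
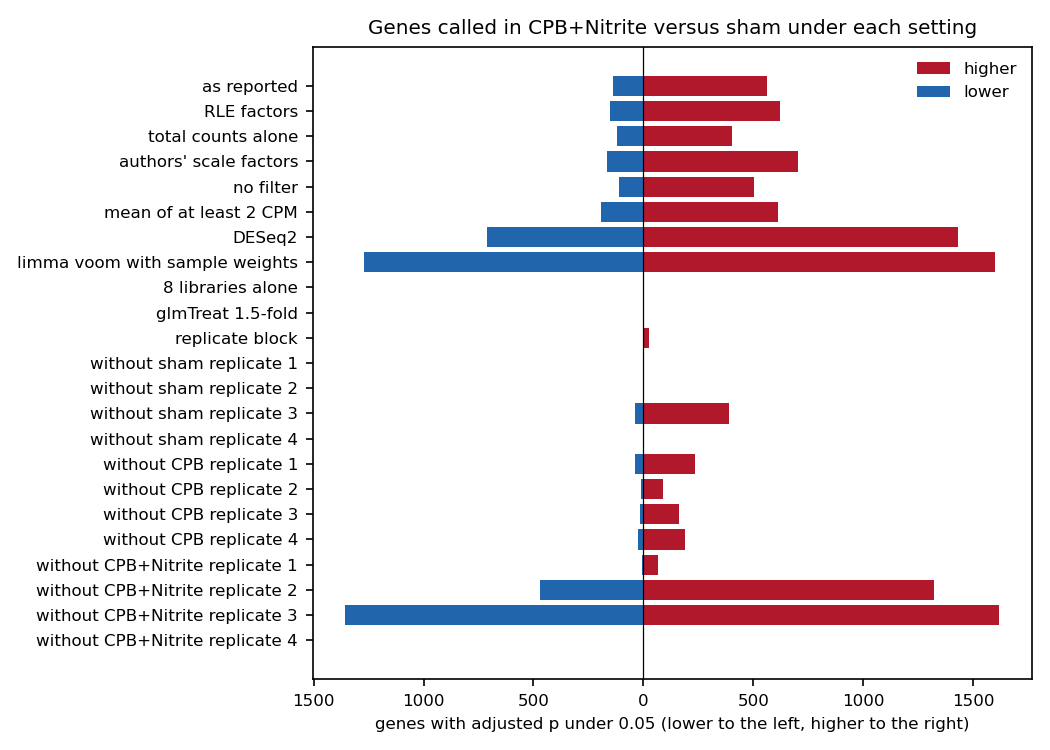
Number of genes with an adjusted p under 0.05 in CPB+Nitrite versus sham (x axis; higher to the right in red, lower to the left in blue) under each setting (y axis). The bars range from 0 genes, in the fit of 8 libraries and without CPB+Nitrite 4, to 1620 higher and 1356 lower without CPB+Nitrite 3.

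Among called genes of at least 2 CPM whose groups did not overlap, the largest increases were in genes of haem breakdown, cytokines, fibrinogen and early transcription factors. Hmox1 (ENSRNOG00000014117, chromosome 19, 13467244 to 13474079, build mRatBN7.2), which encodes the haem oxygenase that breaks down haem, was at 9.01, 5.31, 11.2 and 8.12 CPM in sham 1 to 4 and 729, 41, 111 and 594 CPM in CPB+Nitrite 1 to 4. Every CPB+Nitrite library lay above every sham library, and CPB+Nitrite 1 and 4 lay above 2 and 3. The log2 change was 5.45 with a standard error (SE) of 0.78 (adjusted p = 0.0145). CPB libraries held 410.3 to 674 CPM of Hmox1, a range in which CPB+Nitrite 4 fell. In the list of haem, iron and NRF2 genes, which respond to oxidants, 2 of 22 rose and 0 fell, where 3.85% of all genes tested rose. Members went both ways, 12 positive and 10 negative, with a median log2 change of 0.2. The other gene that rose, Srxn1, which repairs oxidised peroxiredoxins, was at 3.8, 3.34, 9.61 and 5.51 CPM in sham 1 to 4 and 45.6, 6.08, 17.6 and 53.9 CPM in CPB+Nitrite 1 to 4, with CPB+Nitrite 2 inside the sham range. The count of higher members was 6 without CPB+Nitrite 2, 1 without CPB+Nitrite 1 and 4 without CPB+Nitrite 3. Without CPB+Nitrite 3 the test also called 4 members lower, and limma voom called 6 higher and 2 lower.

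**Figure D3:**
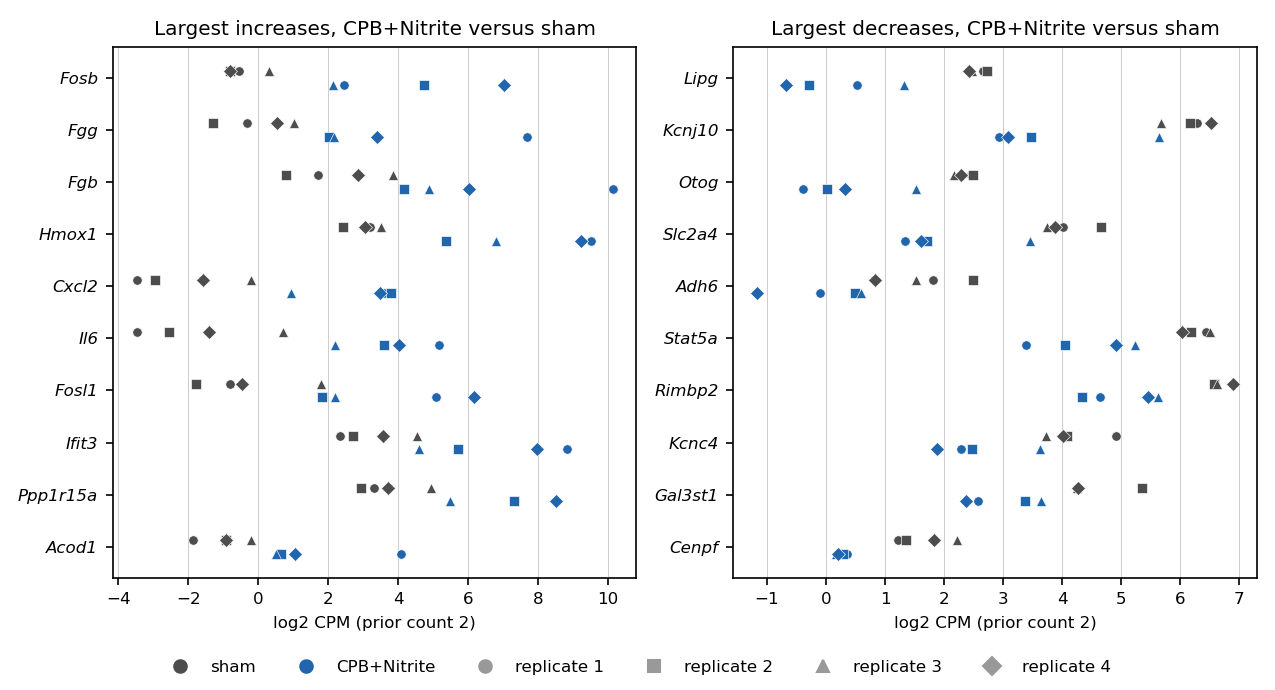
Log2 CPM with a prior count of 2 (x axis) of the 10 genes with the largest called increase and the 10 with the largest called decrease between CPB+Nitrite and sham whose groups did not overlap (y axis). Each point is 1 library, grey for sham and blue for CPB+Nitrite, and the marker gives the replicate number; in most rows CPB+Nitrite 3 (triangle) is the blue point nearest to sham.

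Tubular injury genes were still higher with nitrite, unevenly across libraries. Of 24 tested members 11 rose and 0 fell, with a median log2 change of 1.59, and the count was 1 without CPB+Nitrite 1 and 15 without CPB+Nitrite 3. The mean level of the list, relative to the sham mean, was 2.65, 1.29, 0.89 and 2.49 log2 units in CPB+Nitrite 1 to 4, against -0.45 to 0.61 in sham and 2.29 to 2.55 in CPB. Havcr1, kidney injury molecule 1 of damaged proximal tubule, was at 4.92, 4.18, 26.5 and 7.15 CPM in sham 1 to 4 and 721, 35.5, 22.6 and 275 CPM in CPB+Nitrite 1 to 4. CPB+Nitrite 3 lay below sham 3, so the groups overlapped although the mean difference passed (log2 change 4.62, SE 1.03, adjusted p = 0.0387). The metalloprotease inhibitor gene Timp1 was at 5.4, 3.14, 7.77 and 4.83 CPM in sham 1 to 4 and 103, 23.3, 13.6 and 72.1 CPM in CPB+Nitrite 1 to 4, with no overlap. Timp1 changed by 3.32 log2 units (SE 0.54, adjusted p = 0.0242). Lcn2, which binds bacterial siderophores and is a urinary marker of kidney injury, was at 0.819, 0.362, 8.38 and 0.483 CPM in sham 1 to 4 and 20.6, 7.0, 6.32 and 24.5 CPM in CPB+Nitrite 1 to 4 and did not pass (adjusted p = 0.0869); sham 3 exceeded CPB+Nitrite 2 and 3.

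Genes of the fibrinogen chains, which form the clot protein and are induced by interleukin 6, had large changes that came mostly from CPB+Nitrite 1. Fgb was at 3.17, 1.65, 14.3 and 7.06 CPM in sham 1 to 4 and 1121, 18, 29.6 and 65 CPM in CPB+Nitrite 1 to 4, and Fgg at 0.708, 0.322, 1.92 and 1.35 CPM in sham 1 to 4 and 205, 3.99, 4.41 and 10.4 CPM in CPB+Nitrite 1 to 4. All 4 CPB+Nitrite libraries exceeded all sham libraries in both genes, and CPB+Nitrite 1 was far above the other 3. The log2 change of Fgb was 5.56 (SE 1.3, adjusted p = 0.0403) and 2.52 without CPB+Nitrite 1, and that of Fgg was 5.7 (SE 1.33, adjusted p = 0.0402) and 2.54 without it. Neither gene passed without CPB+Nitrite 1. Other injury genes that rose included the keratin gene Krt18 of simple epithelia (log2 change 1.96, SE 0.43, adjusted p = 0.0376), Plaur, the urokinase receptor (log2 change 2.43, SE 0.52, adjusted p = 0.0352), and Cd44, a hyaluronan receptor (log2 change 1.45, SE 0.37, adjusted p = 0.0477). Fga, also a fibrinogen chain gene, and Anxa2, Lgals3 and Spp1 were called higher too. Krt18 was at 43.2, 19.2, 39.9 and 19.1 CPM in sham 1 to 4 and 139, 126, 31.3 and 176 CPM in CPB+Nitrite 1 to 4, so CPB+Nitrite 3 lay inside the sham range.

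Cytokine and chemokine genes were higher in CPB+Nitrite 1, 2 and 4 and closer to sham in CPB+Nitrite 3. Of 26 tested members 11 rose and 0 fell (median log2 change 1.98; count 2 without CPB+Nitrite 1 and 18 without CPB+Nitrite 3). Without CPB+Nitrite 2 the test called 13 members higher and 1 lower. The mean level of the list was 3.1, 2.14, 0.55 and 2.51 in CPB+Nitrite 1 to 4, against -0.67 to 0.94 in sham. Il6 (ENSRNOG00000010278, chromosome 4, 5213394 to 5219178), the cytokine that drives the acute-phase response, was at 0, 0.0805, 1.55 and 0.29 CPM in sham 1 to 4 and 35.9, 12.1, 4.51 and 16.3 CPM in CPB+Nitrite 1 to 4. No library overlapped (log2 change 5.15, SE 0.91, adjusted p = 0.0262), and CPB libraries held 15.3 to 35.7 CPM. Cxcl2, a chemokine that attracts neutrophils, was at 0, 0.0402, 0.777 and 0.242 CPM in sham 1 to 4 and 12, 13.7, 1.81 and 11.1 CPM in CPB+Nitrite 1 to 4. Cxcl2 changed by 5.18 log2 units (SE 0.85, adjusted p = 0.0242). Its relative Cxcl1 was at 1.34, 0.604, 7.81 and 2.56 CPM in sham 1 to 4 and 65.6, 107, 5.14 and 35.2 CPM in CPB+Nitrite 1 to 4, where CPB+Nitrite 3 lay below sham 3. Cxcl1 changed by 4.11 log2 units (SE 0.86, adjusted p = 0.0318). Cxcl3 stayed under 2 CPM in all 8 libraries (log2 change 3.36, SE 0.69, adjusted p = 0.031; log2 change 5.07 without sham 3).

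Ccl2, which attracts monocytes, was at 0.521, 2.82, 3.68 and 1.31 CPM in sham 1 to 4 and 46.4, 60.2, 1.27 and 28.1 CPM in CPB+Nitrite 1 to 4. CPB+Nitrite 3 was within the sham range and the other 3 were far above it (log2 change 4.03, SE 0.85, adjusted p = 0.0323). Tnf was at 0.484, 1.09, 0.777 and 1.64 CPM in sham 1 to 4 and 3.34, 10.7, 0.294 and 4.22 CPM in CPB+Nitrite 1 to 4 and Il1b at 4.06, 6.96, 5.52 and 3.72 CPM in sham 1 to 4 and 23.6, 8.28, 4.75 and 13.4 CPM in CPB+Nitrite 1 to 4, and neither passed (adjusted p = 0.092 and 0.0661). Acod1, the enzyme that makes itaconate in activated macrophages, was at 0.186, 0.443, 0.777 and 0.435 CPM in sham 1 to 4 and 16.8, 1.47, 1.32 and 2.0 CPM in CPB+Nitrite 1 to 4; its log2 change was 3.54 (SE 0.82, adjusted p = 0.0402) and 1.78 without CPB+Nitrite 1, with the call lost.

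Subunits and feedback genes of NF-kappaB, the transcription factor that drives many cytokine genes, rose in 10 of 22 members, and 0 fell (median log2 change 1.16; count 0 without CPB+Nitrite 1 and 16 without CPB+Nitrite 3). Rela, the p65 subunit, was at 56.2, 43.9, 53.2 and 52.3 CPM in sham 1 to 4 and 130.4, 65, 76.8 and 113 CPM in CPB+Nitrite 1 to 4, without overlap. Rela changed by 0.91 log2 units (SE 0.21, adjusted p = 0.0402). The RNase gene Zc3h12a, which degrades cytokine transcripts, was at 14.9, 14.5, 22.4 and 19.7 CPM in sham 1 to 4 and 45.5, 29, 26.4 and 61.4 CPM in CPB+Nitrite 1 to 4. Zc3h12a changed by 1.18 log2 units (SE 0.27, adjusted p = 0.0391). Tnfaip3, a deubiquitinase that switches the pathway off, was at 7.67, 7.16, 20.5 and 14.3 CPM in sham 1 to 4 and 74.2, 62.3, 15.1 and 85.5 CPM in CPB+Nitrite 1 to 4, with CPB+Nitrite 3 between sham 4 and sham 3. Tnfaip3 changed by 2.26 log2 units (SE 0.48, adjusted p = 0.0327). Birc3, an inhibitor of apoptosis, was at 7.34, 6.76, 19.3 and 7.44 CPM in sham 1 to 4 and 79.8, 29.6, 12.7 and 96.9 CPM in CPB+Nitrite 1 to 4, with CPB+Nitrite 3 again below sham 3. Birc3 changed by 2.42 log2 units (SE 0.56, adjusted p = 0.0402). Icam1, an adhesion molecule for leukocytes, was at 28, 27.4, 61.7 and 42.4 CPM in sham 1 to 4 and 171, 156, 38.4 and 173 CPM in CPB+Nitrite 1 to 4. Icam1 changed by 1.75 log2 units (SE 0.44, adjusted p = 0.0466).

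Interferon-stimulated genes had the largest median of the lists with at least 5 tested members. Of 35 members 18 rose and 0 fell (median log2 change 2.09, all 35 positive), and the count was 1 without CPB+Nitrite 1 and 35 without CPB+Nitrite 3, and 32 without CPB+Nitrite 2. The mean level was 3.23, 1.46, 0.43 and 2.8 log2 units in CPB+Nitrite 1 to 4 against -0.59 to 0.88 in sham and 3.32 to 4.33 in CPB. CPB+Nitrite 3 thus lay below sham 3, and CPB+Nitrite 1 reached furthest from sham. Ifit3, an antiviral protein that binds the adaptor of RNA sensing, was at 4.99, 6.48, 23.3 and 11.7 CPM in sham 1 to 4 and 455, 52.5, 24.2 and 248 CPM in CPB+Nitrite 1 to 4, with CPB+Nitrite 3 only just above sham 3. Ifit3 changed by 4.07 log2 units (SE 0.82, adjusted p = 0.03). Ifit2 was at 6.85, 10.1, 19.2 and 12.5 CPM in sham 1 to 4 and 268, 54.8, 18.7 and 179 CPM in CPB+Nitrite 1 to 4. Ifit2 changed by 3.42 log2 units (SE 0.67, adjusted p = 0.0287). CPB libraries held 349 to 804 CPM of Ifit2. Irf7, the factor that amplifies type I interferon, was at 17.1, 28.2, 52.3 and 18.8 CPM in sham 1 to 4 and 293, 295, 43.2 and 242 CPM in CPB+Nitrite 1 to 4. Irf7 changed by 2.91 log2 units (SE 0.54, adjusted p = 0.0278). Oasl, an antiviral relative of the oligoadenylate synthases, did not overlap, at 2.83, 2.94, 9.73 and 3.43 CPM in sham 1 to 4 and 70.2, 26.3, 14.4 and 89.9 CPM in CPB+Nitrite 1 to 4. Oasl changed by 3.41 log2 units (SE 0.59, adjusted p = 0.0262).

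The promoters of the 10 genes with the largest increases and the 10 with the largest decreases were searched for short motifs in RefSeq windows of 300 bases, from 250 before to 50 after the gene start (build GRCr8, both strands). Windows were found for 9 genes with increases and 8 with decreases. The core of the interferon-stimulated response element, GAAANNGAAA, lay in 2 of 9 and 0 of 8 windows, against 3.92% of 33469 windows. The cyclic AMP response element TGACGTCA lay in 2 of 9 and 0 of 8 (1.83% of all windows), the AP-1 site TGANTCA in 3 of 9 and 0 of 8 (7.33%), the heat shock element core GAANNTTC in 0 of 9 and 0 of 8 (8.59%), and the hypoxia response core ACGTG in 2 of 9 and 1 of 8 (19.3%). These are matches of letters, with no evidence of binding. The 3 windows below belong to genes described here and hold the first 3 motifs, with every match in capitals; they are Il6 (GRCr8 chr4:5894526-5894825, minus strand), with TGACGTCA from base -162 relative to the gene start, Ifit3 (chr1:241527076-241527375, plus strand), with the interferon core on the opposite strand from base -44 and the hypoxia core and AP-1 site overlapping from base -11, and Ppp1r15a (chr1:105139547-105139846, minus strand), with TGACGTCA from base -66 and the AP-1 site from base -6.
Il6: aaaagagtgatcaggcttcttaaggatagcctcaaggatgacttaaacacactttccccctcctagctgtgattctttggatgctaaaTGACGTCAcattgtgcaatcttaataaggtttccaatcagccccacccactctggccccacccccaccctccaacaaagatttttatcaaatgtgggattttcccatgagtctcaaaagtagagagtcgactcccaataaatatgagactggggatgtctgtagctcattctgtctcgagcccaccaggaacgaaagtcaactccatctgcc
Ifit3: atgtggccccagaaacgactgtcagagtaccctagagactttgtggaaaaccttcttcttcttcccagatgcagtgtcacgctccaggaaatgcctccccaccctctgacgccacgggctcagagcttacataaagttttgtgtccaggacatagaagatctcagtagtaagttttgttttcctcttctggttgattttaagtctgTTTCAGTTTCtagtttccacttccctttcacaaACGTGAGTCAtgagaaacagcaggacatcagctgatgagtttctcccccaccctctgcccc
Ppp1r15a: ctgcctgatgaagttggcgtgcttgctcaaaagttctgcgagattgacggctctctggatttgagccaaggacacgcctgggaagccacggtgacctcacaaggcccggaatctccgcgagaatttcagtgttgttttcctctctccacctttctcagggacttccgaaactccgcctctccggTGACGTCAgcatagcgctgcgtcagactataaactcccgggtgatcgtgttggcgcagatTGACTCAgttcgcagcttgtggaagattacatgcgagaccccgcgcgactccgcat

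Immediate-early genes, transcribed within minutes of a stimulus without new protein, stood high in all 4 CPB+Nitrite libraries. Of 30 members 13 rose and 0 fell (median log2 change 1.94, count 2 without CPB+Nitrite 1, 25 without CPB+Nitrite 3 and 21 without CPB+Nitrite 2). Without overlap between the groups, 14 were higher. Of all genes tested 3.85% rose and 5.64% were higher without overlap. The mean level was 2.07, 1.64, 1.36 and 3.02 in CPB+Nitrite 1 to 4, -0.85 to 1.02 in sham and 1.41 to 2.18 in CPB. Fosb, a subunit of AP-1, had the largest change among genes of at least 2 CPM whose groups did not overlap, at 0.596, 0.483, 1.14 and 0.483 CPM in sham 1 to 4 and 5.41, 26.4, 4.31 and 131 CPM in CPB+Nitrite 1 to 4. Fosb changed by 5.93 log2 units (SE 1.33, adjusted p = 0.0391). CPB+Nitrite 4 was the highest and CPB+Nitrite 3 the lowest, still above every sham library. Fosl1, another subunit, was at 0.484, 0.201, 3.39 and 0.628 CPM in sham 1 to 4 and 33.8, 3.48, 4.51 and 71.4 CPM in CPB+Nitrite 1 to 4. Fosl1 changed by 4.58 log2 units (SE 1.13, adjusted p = 0.0454). CPB+Nitrite 2 was only just above sham 3. Jund was at 165, 115, 260.1 and 174 CPM in sham 1 to 4 and 504, 402, 376 and 677 CPM in CPB+Nitrite 1 to 4. Jund changed by 1.46 log2 units (SE 0.24, adjusted p = 0.0252). Ier2 was at 36.1, 23.7, 67.9 and 32 CPM in sham 1 to 4 and 149.6, 119.9, 85.1 and 239 CPM in CPB+Nitrite 1 to 4. Ier2 changed by 1.89 log2 units (SE 0.36, adjusted p = 0.0287). Neither Jund nor Ier2 overlapped between the groups.

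Nr4a1, an orphan nuclear receptor induced by many stimuli, was highest in CPB+Nitrite 2, at 11.3, 5.71, 18.6 and 22.7 CPM in sham 1 to 4 and 38.3, 208, 58.8 and 71 CPM in CPB+Nitrite 1 to 4. Nr4a1 changed by 2.69 log2 units (SE 0.55, adjusted p = 0.0305). CPB libraries held 12 to 29.5 CPM, so all 4 CPB+Nitrite libraries also exceeded all 4 CPB libraries. The log2 difference of CPB+Nitrite from CPB was 2.19 (SE 0.54, adjusted p = 0.0576), in a comparison where 0 of 14664 genes (0%) passed. Among p53 and cell-cycle arrest genes 4 of 19 rose and 0 fell (count 2 without CPB+Nitrite 1 and 8 without CPB+Nitrite 3; 8 without CPB+Nitrite 2). They were Gadd45b and Gadd45a of the DNA-damage response, the cyclin-dependent kinase inhibitor Cdkn1a and the stress kinase Plk3. Gadd45b was at 12.9, 8.49, 39.9 and 19.9 CPM in sham 1 to 4 and 105, 182, 45.7 and 278 CPM in CPB+Nitrite 1 to 4. Gadd45b changed by 2.91 log2 units (SE 0.55, adjusted p = 0.0287). Cdkn1a was at 12.2, 5.31, 22 and 8.6 CPM in sham 1 to 4 and 43.3, 38.1, 30.4 and 86.2 CPM in CPB+Nitrite 1 to 4. Cdkn1a changed by 2.04 log2 units (SE 0.41, adjusted p = 0.03). Gadd45b and Cdkn1a did not overlap between the groups. Plk3 was at 6.29, 4.63, 9.85 and 7.98 CPM in sham 1 to 4 and 13.4, 33.1, 14.3 and 54.1 CPM in CPB+Nitrite 1 to 4. Plk3 changed by 2.0 log2 units (SE 0.45, adjusted p = 0.0391). CPB libraries held 7.37 to 18.6 CPM.

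Genes of the unfolded protein and integrated stress responses rose in part. Of 27 members 4 rose and 0 fell (median log2 change 0.49; count 1 without CPB+Nitrite 1 and 9 without CPB+Nitrite 3; 10 without CPB+Nitrite 2). Ppp1r15a, the phosphatase subunit that restarts translation after stress, was at 9.87, 7.6, 30.4 and 13.1 CPM in sham 1 to 4 and 158, 157, 44.5 and 368 CPM in CPB+Nitrite 1 to 4, without overlap. Ppp1r15a changed by 3.58 log2 units (SE 0.58, adjusted p = 0.0242). Atf4, the transcription factor of the integrated stress response, was at 126, 148, 218 and 124 CPM in sham 1 to 4 and 628, 382, 204 and 530.4 CPM in CPB+Nitrite 1 to 4, with CPB+Nitrite 3 just below sham 3. Atf4 changed by 1.5 log2 units (SE 0.31, adjusted p = 0.0313). Its target Trib3 was at 1.82, 1.61, 2.78 and 2.13 CPM in sham 1 to 4 and 21.7, 4.03, 3.43 and 22 CPM in CPB+Nitrite 1 to 4. Trib3 changed by 2.61 log2 units (SE 0.59, adjusted p = 0.0391). Ddit3, which can promote cell death, also rose (log2 change 1.54, SE 0.39, adjusted p = 0.0477).

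Heat-shock genes followed single libraries. Where 3.85% of all genes tested rose, only Hspa2 of 29 members rose (log2 change 0.86, SE 0.22, adjusted p = 0.0494). The count was 0 without CPB+Nitrite 1, 2 without CPB+Nitrite 2 and 3 without CPB+Nitrite 3. The list level was -0.02, 0.3, 0.03 and 1.92 in CPB+Nitrite 1 to 4 against -0.22 to 0.24 in sham. Hspa1b, an inducible HSP70 chaperone, was at 255, 148, 313 and 287 CPM in sham 1 to 4 and 189.8, 1915, 309.5 and 16336 CPM in CPB+Nitrite 1 to 4 and did not pass (adjusted p = 0.0884). CPB+Nitrite 1 and 3 lay within the sham range and CPB+Nitrite 2 and 4 far above it; reads of this gene and its near-identical neighbour Hspa1a can be exchanged, which makes the split between them uncertain. Metallothioneins, small proteins that bind zinc and copper, included 2 called genes, Mt1 (log2 change 1.68, SE 0.41, adjusted p = 0.0441) and Mt2A (log2 change 1.77, SE 0.44, adjusted p = 0.0465), whose sequences are alike, of 9 members of their list (0 called without CPB+Nitrite 1, 4 without CPB+Nitrite 2). Mt1 was at 212, 79.7, 297 and 143 CPM in sham 1 to 4 and 1028, 369.9, 380.3 and 561 CPM in CPB+Nitrite 1 to 4, without overlap.

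Cell death genes rose in 8 of 29 members and 0 fell (median log2 change 0.83; count 0 without CPB+Nitrite 1 and 14 without CPB+Nitrite 3; 14 without CPB+Nitrite 2). Bbc3, the pro-apoptotic protein PUMA, was at 3.54, 3.78, 4.21 and 4.21 CPM in sham 1 to 4 and 14, 7.0, 5.93 and 14.4 CPM in CPB+Nitrite 1 to 4. Bbc3 changed by 1.4 log2 units (SE 0.29, adjusted p = 0.0318). Casp1, the inflammasome protease, was at 2.9, 3.54, 4.46 and 4.11 CPM in sham 1 to 4 and 15.3, 6.96, 4.95 and 15.2 CPM in CPB+Nitrite 1 to 4. Casp1 changed by 1.5 log2 units (SE 0.33, adjusted p = 0.0387). Bbc3 and Casp1 did not overlap between the groups. Gsdmd, the pore protein that caspase 1 cleaves, was at 12.5, 8.17, 9.12 and 8.56 CPM in sham 1 to 4 and 23.1, 20.9, 11.2 and 21.4 CPM in CPB+Nitrite 1 to 4. Gsdmd changed by 1.0 log2 units (SE 0.22, adjusted p = 0.0387). Mlkl, the executor of necroptosis, was at 4.25, 5.91, 8.79 and 6.24 CPM in sham 1 to 4 and 30.9, 13.7, 7.89 and 24.2 CPM in CPB+Nitrite 1 to 4. Mlkl changed by 1.61 log2 units (SE 0.36, adjusted p = 0.0391). In Gsdmd and Mlkl CPB+Nitrite 3 lay inside the sham range.

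Acute-phase and complement genes rose in part. In the acute-phase and STAT3 list 5 of 20 members rose and 0 fell (median log2 change 1.53; count 0 without CPB+Nitrite 1 and 11 without CPB+Nitrite 3; 14 without CPB+Nitrite 2). Cp, the copper oxidase ceruloplasmin, was at 28.8, 33.5, 42.5 and 54.4 CPM in sham 1 to 4 and 147, 93.3, 85.7 and 90.2 CPM in CPB+Nitrite 1 to 4, without overlap. Cp changed by 1.39 log2 units (SE 0.25, adjusted p = 0.0262). Its CPB range was 95.9 to 159.7 CPM. The transcription factor Cebpb was at 75.2, 39.2, 129.8 and 63.6 CPM in sham 1 to 4 and 343, 159.6, 216 and 301 CPM in CPB+Nitrite 1 to 4. Cebpb changed by 1.73 log2 units (SE 0.33, adjusted p = 0.0287). Pim1, a kinase induced by STAT signals, was at 3.69, 3.18, 6.91 and 3.87 CPM in sham 1 to 4 and 18.4, 10.04, 8.47 and 22.1 CPM in CPB+Nitrite 1 to 4. Pim1 changed by 1.74 log2 units (SE 0.33, adjusted p = 0.0287). Haptoglobin, Hp, which binds free haemoglobin, was at 1.12, 0.604, 1.76 and 0.822 CPM in sham 1 to 4 and 6.25, 2.05, 3.23 and 5.82 CPM in CPB+Nitrite 1 to 4. Hp changed by 2.0 log2 units (SE 0.42, adjusted p = 0.0318). Among 27 genes of coagulation and complement, 7 rose and 0 fell (median log2 change 0.43; count 2 without CPB+Nitrite 1 and 10 without CPB+Nitrite 3). Cfb, factor B of the alternative complement pathway, was at 17.5, 15.2, 18.9 and 10.5 CPM in sham 1 to 4 and 165, 133, 25.8 and 154 CPM in CPB+Nitrite 1 to 4, without overlap. Cfb changed by 2.94 log2 units (SE 0.48, adjusted p = 0.0242). Tfpi2, a protease inhibitor, was under 1 CPM in sham and in CPB+Nitrite 3 (log2 change 3.45, SE 0.68, adjusted p = 0.0287).

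Genes of nitric oxide synthesis and arginine supply were among those that rose. Of 24 genes of nitric oxide synthesis, signalling and nitrite reduction, 4 rose and 0 fell (median log2 change -0.01; count 1 without CPB+Nitrite 1 and 4 without CPB+Nitrite 3), where 3.85% of all genes tested rose. Without CPB+Nitrite 2 the test called 4 members higher and 2 lower, and without CPB+Nitrite 3 also 4 and 2. Nos3 (ENSRNOG00000009348, chromosome 4, 10793834 to 10814166), the endothelial synthase, was at 9.39, 8.57, 12.7 and 13.1 CPM in sham 1 to 4 and 21.2, 41.1, 23.4 and 41.3 CPM in CPB+Nitrite 1 to 4. All CPB+Nitrite libraries exceeded all sham libraries (log2 change 1.53, SE 0.27, adjusted p = 0.0262), and CPB libraries held 7.42 to 14 CPM, a range that overlaps sham. The log2 difference of CPB+Nitrite from CPB was 1.52 (SE 0.27, adjusted p = 0.0556). Nos2, the inducible synthase, was at 0.596, 0.322, 1.51 and 1.5 CPM in sham 1 to 4 and 12.8, 8.1, 2.55 and 10 CPM in CPB+Nitrite 1 to 4. Nos2 changed by 3.1 log2 units (SE 0.55, adjusted p = 0.0262). CPB libraries held 14.2 to 37.4 CPM of Nos2. Slc7a1, an arginine transporter, was at 12.1, 10.7, 20.5 and 13.4 CPM in sham 1 to 4 and 62.6, 26.5, 24.9 and 81.1 CPM in CPB+Nitrite 1 to 4. Slc7a1 changed by 1.78 log2 units (SE 0.36, adjusted p = 0.03). Gch1, which makes the tetrahydrobiopterin cofactor of the synthases, was at 1.15, 2.01, 3.6 and 1.26 CPM in sham 1 to 4 and 15.6, 8.46, 3.09 and 14.6 CPM in CPB+Nitrite 1 to 4. Gch1 changed by 2.37 log2 units (SE 0.49, adjusted p = 0.0306). The molybdenum enzyme genes Xdh, Aox1 and Suox were members too, and none of these 3 passed.

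Endothelial markers stood beside Nos3. Of 22 tested markers, Nos3 among them, 4 rose and 0 fell, all 22 log2 changes were positive, and the median was 0.9; the count was 2 without CPB+Nitrite 1 and 8 without CPB+Nitrite 3. Without CPB+Nitrite 2, in which the list stood highest, 3 markers were called higher and 1 lower. The mean level of the list was -0.24, 1.96, 0.2 and 0.61 in CPB+Nitrite 1 to 4 and -0.44 to 0.31 in sham, so that CPB+Nitrite 1 and 3 lay within the sham range and CPB+Nitrite 2 was highest. The summed level of its markers was 448 to 781 CPM in sham and 569.9 to 3510.1 CPM in CPB+Nitrite. Cdh5, the cadherin of endothelial junctions, was at 13.7, 11.1, 13.2 and 18.9 CPM in sham 1 to 4 and 34.6, 61.2, 24.4 and 68.1 CPM in CPB+Nitrite 1 to 4. Cdh5 changed by 1.73 log2 units (SE 0.36, adjusted p = 0.0323). Robo4 of endothelial guidance was at 5.47, 6.32, 6.01 and 7.73 CPM in sham 1 to 4 and 12.1, 20.4, 11 and 19 CPM in CPB+Nitrite 1 to 4. Robo4 changed by 1.29 log2 units (SE 0.22, adjusted p = 0.0262). The endothelin receptor gene Ednrb also rose (log2 change 1.47, SE 0.38, adjusted p = 0.0489). In bulk tissue more cells of a type and more RNA per cell cannot be told apart, and the part of endothelial content in the level of Nos3 was not tested. The tissue plasminogen activator gene Plat, which endothelium releases, was highest in CPB+Nitrite 2, at 115, 66.9, 101 and 107 CPM in sham 1 to 4 and 216, 704, 166 and 420.1 CPM in CPB+Nitrite 1 to 4. Plat changed by 1.95 log2 units (SE 0.4, adjusted p = 0.031). The protein C receptor gene Procr was at 2.09, 1.77, 2.0 and 2.51 CPM in sham 1 to 4 and 10.4, 15.9, 4.16 and 9.07 CPM in CPB+Nitrite 1 to 4. Procr changed by 2.24 log2 units (SE 0.42, adjusted p = 0.0287).

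**Figure D4:**
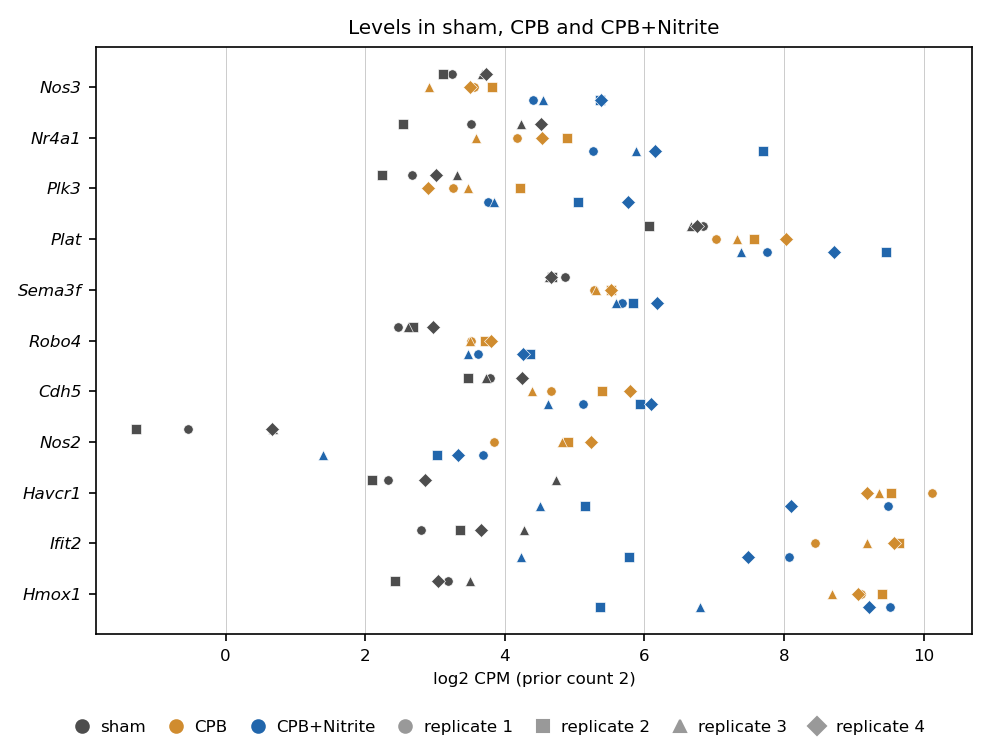
Log2 CPM with a prior count of 2 (x axis) in each library of sham (grey), CPB (orange) and CPB+Nitrite (blue) for 11 genes named in the text (y axis), with replicate numbers as markers. For Nos3 and Nr4a1 all 4 CPB+Nitrite libraries lie above all sham and CPB libraries, while for Havcr1 and Ifit2 they spread from the sham range toward the CPB range.

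Matrix and protease genes rose in 5 of 26 members and 0 fell (median log2 change 1.0; count 2 without CPB+Nitrite 1 and 9 without CPB+Nitrite 3). Tnc, the wound matrix protein tenascin C, was at 3.2, 5.03, 2.66 and 5.8 CPM in sham 1 to 4 and 51.1, 37.8, 17.2 and 28 CPM in CPB+Nitrite 1 to 4. Tnc changed by 3.01 log2 units (SE 0.42, adjusted p = 0.0145). Adamts9, a protease of proteoglycans, was at 8.68, 7.32, 10.02 and 11.5 CPM in sham 1 to 4 and 28.2, 19.6, 21.7 and 29.4 CPM in CPB+Nitrite 1 to 4. Adamts9 changed by 1.4 log2 units (SE 0.23, adjusted p = 0.0252). Its relative Adamts4 was at 1.08, 0.764, 6.38 and 2.13 CPM in sham 1 to 4 and 24.2, 18, 13.9 and 20.3 CPM in CPB+Nitrite 1 to 4. Adamts4 changed by 2.88 log2 units (SE 0.59, adjusted p = 0.0305). Mmp3, a matrix protease, was at 0 CPM in sham 2 and 4 and did not exceed 3.29 CPM with nitrite (log2 change 3.68, SE 0.83, adjusted p = 0.0391). None of these 4 genes overlapped between the groups. Podocyte markers had a median log2 change of 0.59 with 0 called (1 higher without CPB+Nitrite 2 and 5 without CPB+Nitrite 3), and markers of fibroblasts, pericytes and smooth muscle -0.02 with 0 called (1 lower without CPB+Nitrite 2).

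The 10 genes with the smallest p all rose, Hmox1 and Tnc among them. Sema3f, a secreted guidance factor, was at 28.9, 25.5, 24.7 and 25.3 CPM in sham 1 to 4 and 51.3, 57.2, 48.1 and 72.2 CPM in CPB+Nitrite 1 to 4 (log2 change 1.13, SE 0.15, adjusted p = 0.0145), with CPB at 38.9 to 45.8 CPM. The stress kinase gene Map3k6 was at 10.8, 5.35, 7.36 and 8.46 CPM in sham 1 to 4 and 33.8, 33.1, 17.7 and 34.1 CPM in CPB+Nitrite 1 to 4. Map3k6 changed by 1.89 log2 units (SE 0.25, adjusted p = 0.0145). Nectin2, an adhesion molecule of epithelial junctions, was at 54.3, 45.7, 57.6 and 47.7 CPM in sham 1 to 4 and 136, 146, 84.9 and 154 CPM in CPB+Nitrite 1 to 4. Nectin2 changed by 1.34 log2 units (SE 0.18, adjusted p = 0.0145). Csnk1e, a casein kinase of the circadian clock, was at 23.8, 22.6, 27.4 and 25.9 CPM in sham 1 to 4 and 49.3, 45.9, 42.2 and 55.3 CPM in CPB+Nitrite 1 to 4. Csnk1e changed by 0.95 log2 units (SE 0.14, adjusted p = 0.0145). In these 4 genes the CPB+Nitrite libraries spread by less than 2-fold and lay wholly above sham. Pla1a, a phospholipase for phosphatidylserine, was at 6.33, 7.6, 10.1 and 9.38 CPM in sham 1 to 4 and 36.4, 17.3, 21.8 and 30.1 CPM in CPB+Nitrite 1 to 4. Pla1a changed by 1.66 log2 units (SE 0.23, adjusted p = 0.0145). Itprip, which interacts with the inositol trisphosphate receptor, was at 11.5, 10.5, 9.85 and 17.2 CPM in sham 1 to 4 and 35.5, 40.05, 25.1 and 34.1 CPM in CPB+Nitrite 1 to 4. Itprip changed by 1.46 log2 units (SE 0.21, adjusted p = 0.0145). Lypd1 was at 1.12, 0.724, 1.23 and 1.21 CPM in sham 1 to 4 and 8.75, 5.64, 4.65 and 4.89 CPM in CPB+Nitrite 1 to 4. Lypd1 changed by 2.48 log2 units (SE 0.35, adjusted p = 0.0145). Ifi27l2b, an interferon-inducible gene with close relatives, was at 4.54, 4.43, 6.54 and 4.5 CPM in sham 1 to 4 and 21.7, 50.9, 12.3 and 33.9 CPM in CPB+Nitrite 1 to 4. Ifi27l2b changed by 2.57 log2 units (SE 0.36, adjusted p = 0.0145).

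Neutrophil and lymphocyte markers were low, and leukocyte markers rose in part, where 3.85% of all genes tested rose. Of 12 neutrophil markers 3 rose and 0 fell (median log2 change 1.57; 5 without CPB+Nitrite 2), with a summed level of 7.25 to 18.4 CPM in sham and 29 to 53.4 CPM in CPB+Nitrite. These sums include Lcn2, described above with the injury genes, which made up a large part of them in sham 3, CPB+Nitrite 1 and CPB+Nitrite 4. The calgranulin gene S100a9 was at 2.94, 2.05, 3.11 and 1.35 CPM in sham 1 to 4 and 8.62, 11, 8.08 and 6.76 CPM in CPB+Nitrite 1 to 4. S100a9 changed by 1.86 log2 units (SE 0.3, adjusted p = 0.0242). Its partner S100a8 was at 0.708, 0.443, 0.572 and 0.483 CPM in sham 1 to 4 and 1.99, 3.7, 2.06 and 2.53 CPM in CPB+Nitrite 1 to 4. S100a8 changed by 2.21 log2 units (SE 0.39, adjusted p = 0.0262), and neither gene overlapped between the groups. Ngp, a neutrophil granule protein, was at 0, 0, 0.0409 and 0.0483 CPM in sham 1 to 4 and 0.93, 6.05, 0.343 and 1.11 CPM in CPB+Nitrite 1 to 4, levels of a few reads or none in sham. Its fitted log2 change of 6.33 (SE 1.15, adjusted p = 0.0262) was the largest of all called genes. With sham at or near 0, it depends on the default prior count of the edgeR fit, which is not the prior count of 2 used for log2 CPM. Cd14, the lipopolysaccharide co-receptor, was the one gene of 16 macrophage markers that rose, at 6.48, 5.51, 7.61 and 4.69 CPM in sham 1 to 4 and 33.3, 9.42, 15.1 and 26.7 CPM in CPB+Nitrite 1 to 4 (log2 change 1.8, SE 0.33, adjusted p = 0.0273, not called without CPB+Nitrite 1, and 2 markers called without CPB+Nitrite 2). The 16 macrophage markers had a median log2 change of 0.285, with 11 positive and 5 negative. Their summed level was 137 to 295 CPM in sham and 199 to 280 CPM in CPB+Nitrite, so the groups overlapped. Granzyme B, Gzmb, was the one lymphocyte marker of 7 that rose, at 0.335, 0.443, 0.204 and 0.29 CPM in sham 1 to 4 and 3.89, 1.06, 0.784 and 1.78 CPM in CPB+Nitrite 1 to 4 (log2 change 2.54, SE 0.53, adjusted p = 0.0313; not called without CPB+Nitrite 1). The part of infiltrating cells in these changes was not tested.

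Sugar and lipid genes showed a few increases, where 3.85% of all genes tested rose. Of 25 targets of hypoxia-inducible factor 3 rose and 0 fell (median log2 change 0.53; count 0 without CPB+Nitrite 1 and 7 without CPB+Nitrite 3; 6 without CPB+Nitrite 2). Pfkfb3, which raises glycolytic flux, was at 22.6, 30.4, 49.2 and 29.1 CPM in sham 1 to 4 and 181, 121, 66.9 and 407 CPM in CPB+Nitrite 1 to 4. Pfkfb3 changed by 2.56 log2 units (SE 0.5, adjusted p = 0.0287). Ldha, lactate dehydrogenase, was at 397, 363, 436 and 296 CPM in sham 1 to 4 and 641, 636, 501 and 734 CPM in CPB+Nitrite 1 to 4. Ldha changed by 0.75 log2 units (SE 0.17, adjusted p = 0.0382). The glucose transporter Slc2a1 was at 43.2, 49.2, 53 and 49.7 CPM in sham 1 to 4 and 77, 114, 68 and 249.7 CPM in CPB+Nitrite 1 to 4. Slc2a1 changed by 1.38 log2 units (SE 0.33, adjusted p = 0.0441). Without CPB+Nitrite 4 its log2 change was 0.82, with the call lost. In lipid synthesis 2 of 22 rose and 0 fell (median log2 change 0.14; count 0 without CPB+Nitrite 1 and 6 without CPB+Nitrite 3). The sterol-regulatory factor gene Srebf1 was at 31.1, 25.3, 30.01 and 31.1 CPM in sham 1 to 4 and 70.4, 69.4, 38.9 and 59.9 CPM in CPB+Nitrite 1 to 4. Srebf1 changed by 1.02 log2 units (SE 0.17, adjusted p = 0.0262). Insig1, which holds back sterol synthesis, was at 23.4, 27.7, 57.2 and 38.7 CPM in sham 1 to 4 and 109, 175, 52.6 and 140.3 CPM in CPB+Nitrite 1 to 4. Insig1 changed by 1.7 log2 units (SE 0.39, adjusted p = 0.0391). Nfil3 was the one circadian gene of 19 that rose (log2 change 2.34, SE 0.59, adjusted p = 0.0462; 3 without CPB+Nitrite 2).

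Among the genes with the largest decreases were channels, transporters, a lipase and a transcription factor. Kcnj10 (ENSRNOG00000068444, chromosome 13, 84802009 to 84835461), a basolateral potassium channel of the distal tubule, was at 77.5, 71.7, 51.2 and 91.7 CPM in sham 1 to 4 and 7.56, 11, 49.9 and 8.4 CPM in CPB+Nitrite 1 to 4. CPB+Nitrite 3 lay just below sham 3, and the other 3 libraries were far lower (log2 change -1.93, SE 0.51, adjusted p = 0.0499; log2 change -3.02 without CPB+Nitrite 3, and not called without CPB+Nitrite 1 or 2). CPB libraries held 4.98 to 5.36 CPM of it. Stat5a, a transcription factor of growth hormone and cytokine receptors, was at 86.8, 72.7, 91.1 and 65.5 CPM in sham 1 to 4 and 10.4, 16.5, 37.5 and 30.01 CPM in CPB+Nitrite 1 to 4. Stat5a changed by -1.75 log2 units (SE 0.33, adjusted p = 0.0287). Slc2a4, the insulin-regulated glucose transporter, was at 16.1, 25.1, 13.3 and 14.7 CPM in sham 1 to 4 and 2.45, 3.19, 10.9 and 2.98 CPM in CPB+Nitrite 1 to 4. Slc2a4 changed by -1.83 log2 units (SE 0.44, adjusted p = 0.0441). Rimbp2, known as a synaptic scaffold, was at 95.8, 94.9, 98.7 and 119 CPM in sham 1 to 4 and 25, 20.2, 49 and 43.6 CPM in CPB+Nitrite 1 to 4. Rimbp2 changed by -1.57 log2 units (SE 0.28, adjusted p = 0.0262).

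Lipg, endothelial lipase, had the largest decrease of this group. It was at 6.26, 6.56, 5.48 and 5.27 CPM in sham 1 to 4 and 1.35, 0.733, 2.4 and 0.533 CPM in CPB+Nitrite 1 to 4. Lipg changed by -2.24 log2 units (SE 0.44, adjusted p = 0.0287). The potassium channel gene Kcnc4 was at 29.9, 16.8, 13.1 and 16 CPM in sham 1 to 4 and 4.78, 5.46, 12.2 and 3.6 CPM in CPB+Nitrite 1 to 4. Kcnc4 changed by -1.54 log2 units (SE 0.38, adjusted p = 0.0445). Gal3st1, the sulfotransferase that makes sulfatide, was at 18.9, 40.8, 19 and 19.2 CPM in sham 1 to 4 and 5.87, 10.3, 12.4 and 5.07 CPM in CPB+Nitrite 1 to 4. Gal3st1 changed by -1.54 log2 units (SE 0.36, adjusted p = 0.0402). Otog, a protein best known from the inner ear, was at 5.4, 5.55, 4.42 and 4.79 CPM in sham 1 to 4 and 0.676, 0.916, 2.79 and 1.16 CPM in CPB+Nitrite 1 to 4. Otog changed by -1.87 log2 units (SE 0.39, adjusted p = 0.0318). Adh6, an alcohol dehydrogenase, was at 3.43, 5.55, 2.78 and 1.69 CPM in sham 1 to 4 and 0.845, 1.32, 1.42 and 0.356 CPM in CPB+Nitrite 1 to 4. Adh6 changed by -1.77 log2 units (SE 0.45, adjusted p = 0.0477). None of these overlapped between the groups.

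Markers of the proximal and distal nephron were among the genes that fell, where 0.955% of all genes tested fell. In the 21 genes marking the distal tubule or loop of Henle, 2 decreases and 0 increases were called (median log2 change -0.64; count 0 without CPB+Nitrite 1 and 8 without CPB+Nitrite 3; 0 lower and 1 higher without CPB+Nitrite 2), Kcnj10 and the kinase Wnk1 that controls salt transport. Wnk1 was at 544, 329, 233 and 453 CPM in sham 1 to 4 and 128, 111, 293 and 126 CPM in CPB+Nitrite 1 to 4, with CPB+Nitrite 3 above sham 3. Wnk1 changed by -1.24 log2 units (SE 0.32, adjusted p = 0.0482). Of 27 proximal tubule markers 2 fell and 0 rose (median log2 change -0.36; count 0 without CPB+Nitrite 1 and 6 without CPB+Nitrite 3). Slc7a13, an amino acid transporter of the late proximal tubule, was at 1707, 2088, 2051 and 1902 CPM in sham 1 to 4 and 680.2, 742, 1602 and 741 CPM in CPB+Nitrite 1 to 4. Slc7a13 changed by -1.04 log2 units (SE 0.26, adjusted p = 0.0459). Slc22a6, the organic anion transporter OAT1, was at 687, 492, 672 and 748 CPM in sham 1 to 4 and 394, 494, 407 and 386 CPM in CPB+Nitrite 1 to 4, with CPB+Nitrite 2 just above sham 2. Slc22a6 changed by -0.63 log2 units (SE 0.16, adjusted p = 0.0477). Slc34a1 was lower in every CPB+Nitrite library, at 1179, 980.2, 1017 and 1008 CPM, but did not pass (adjusted p = 0.0681). Umod did not pass either (adjusted p = 0.46). Of 21 collecting duct markers 0 passed in either direction, while without CPB+Nitrite 2 the test called 2 lower and without CPB+Nitrite 3 it called 1 higher.

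Genes of mitochondrial metabolism had mostly negative changes, and 1 of them was called. In fatty acid oxidation 0 of 30 genes were called, with 26 of them negative and a median log2 change of -0.29 (10 had an unadjusted p under 0.05; DESeq2 called 3 lower, limma voom 9, and edgeR without CPB+Nitrite 3 called 12; without CPB+Nitrite 2 it called 1 higher and 2 lower). Ppara, the receptor that drives these genes, was at 6.11, 9.09, 8.95 and 11.2 CPM in sham 1 to 4 and 1.82, 1.36, 5.49 and 4.93 CPM in CPB+Nitrite 1 to 4, lower in every CPB+Nitrite library. Ppara differed by -1.38 log2 units (SE 0.4, adjusted p = 0.0598), short of the threshold. Among 22 genes of gluconeogenesis and the citric acid cycle 0 were called, all 22 were negative and the median was -0.3 (6 at an unadjusted p under 0.05; DESeq2 called 5, limma voom 6, and edgeR without CPB+Nitrite 3 called 8). Of 26 nuclear genes of oxidative phosphorylation Ndufs1, a core subunit of complex I, fell, at 264, 278, 308 and 303 CPM in sham 1 to 4 and 181, 151, 233 and 165 CPM in CPB+Nitrite 1 to 4 (log2 change -0.66, SE 0.15, adjusted p = 0.0391; not called without CPB+Nitrite 1).

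Of 29 genes of cell division 2 fell and 0 rose (median log2 change -0.5; count 0 without CPB+Nitrite 1 and 7 without CPB+Nitrite 3; 5 without CPB+Nitrite 2), and 8 were lower without overlap, against 0.955% of all genes tested that fell and 5.87% that were lower without overlap. Cenpf, a kinetochore protein, was at 2.23, 2.45, 4.54 and 3.48 CPM in sham 1 to 4 and 1.18, 1.14, 1.03 and 1.07 CPM in CPB+Nitrite 1 to 4. Cenpf changed by -1.52 log2 units (SE 0.35, adjusted p = 0.0398). Mki67, the proliferation marker, was at 3.58, 5.35, 7.28 and 7.88 CPM in sham 1 to 4 and 3.08, 2.49, 2.45 and 2.71 CPM in CPB+Nitrite 1 to 4. Mki67 changed by -1.16 log2 units (SE 0.29, adjusted p = 0.0473). In both genes the 4 CPB+Nitrite libraries were close together, CPB+Nitrite 3 included.

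**Figure D5:**
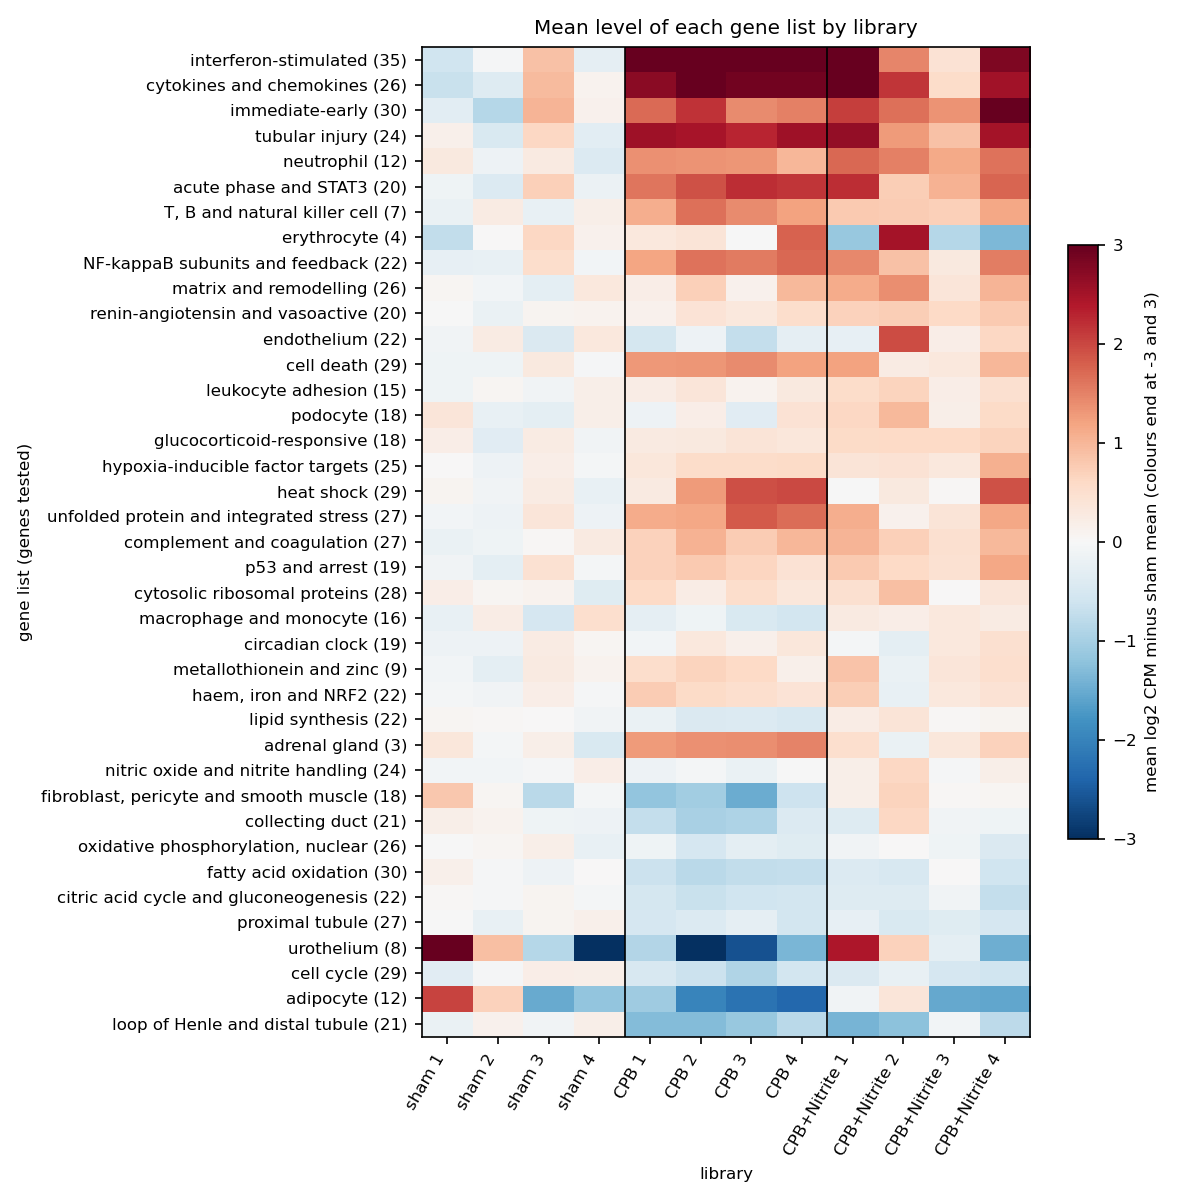
Mean log2 CPM of the tested members of each gene list relative to the sham mean (colour; red higher, blue lower) by library (x axis), with lists ordered by their median log2 change in CPB+Nitrite versus sham (y axis; genes tested in parentheses). Interferon-stimulated genes were at 3.23, 1.46, 0.43 and 2.8 log2 units in CPB+Nitrite 1 to 4, and erythrocyte and endothelial genes were highest in CPB+Nitrite 2.

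Some genes varied over orders of magnitude within CPB+Nitrite, and none of the 8 with the widest spread passed. Nrip3 was at 4.9, 420.0, 3.09 and 45.4 CPM in CPB+Nitrite 1 to 4, and the carbonic anhydrase gene Car3 at 39.7, 53.2, 0.343 and 0.356 CPM. Kng2, a kininogen gene with close relatives, was at 432, 3.11, 129 and 42.4 CPM, and RGD1305184 at 27.1, 0.953, 0.147 and 1.02 CPM. Wide spread was not limited to CPB+Nitrite: in sham 1 to 4 Car3 was at 7.46, 5.95, -1.0 and -3.48 log2 CPM. In the same sham libraries Nrip3 was at 0.23, 4.53, 3.21 and 0.67 log2 CPM and Kng2 at 4.33, 3.43, 5.14 and 3.86. RGD1305184 was at -3.48, -2.94, -1.98 and -0.48 log2 CPM there, and at 5.4, 6.13, 6.26 and 6.84 log2 CPM in CPB 1 to 4. Slc39a7, a zinc transporter, had 0 CPM in CPB+Nitrite 2 and 28.7, 30.2, 34.5 and 57.7 CPM in sham 1 to 4. Hspa1a, Hspa1b and Slc14a2 completed this set. Haemoglobin genes did not pass with all libraries, where Hbb was at 224, 377, 727 and 379.6 CPM in sham 1 to 4 and 149.6, 3542, 166 and 132 CPM in CPB+Nitrite 1 to 4 (log2 change 1.22, adjusted p = 0.418). Without CPB+Nitrite 2 the log2 change of Hbb was -1.52 (adjusted p = 0.0452), in the opposite direction.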

How the data were processed

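Kidney RNA of 4 sham, 4 CPB and 4 CPB+Nitrite samples was extracted with QIAzol, treated with DNase and made into directional libraries, per the labels' protocols. The deposited table holds estimated counts per gene, of which 33.15% of the non-zero values are not whole (tolerance 1e-06). The submitters' processing notes name bcl2fastq 2.19, cutadapt 1.18, Salmon 1.2.1, R 3.5.1 and build mRatBN7.2, without their settings. A second deposited table, a signal that equals the authors' counts times 1 factor per library, gave the gene symbols and those factors as an alternative scaling.

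Estimated counts were rounded. The filter filterByExpr (minimum count 10) kept 14664 of 30208 genes, and TMM set the scale. The edgeR 4.0.16 quasi-likelihood test (R 4.3.3, no covariates, two-sided) was fitted to 12 libraries in 3 groups, with Benjamini-Hochberg adjustment over all genes tested. SE is the log2 change divided by the square root of F. Log2 CPM used a prior count of 2. The script was tested on simulated counts that had the same spread in all 3 groups. That test does not cover the wider spread seen in CPB+Nitrite. Alternatives were DESeq2 1.42.0, limma 3.58.1 (voom with sample weights), other scalings and filters, a fold threshold of 1.5, the 8 libraries alone, a replicate block and leaving out each library.

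The named genes are the 10 largest increases and 10 largest decreases among called genes with a symbol, at least 2 CPM and no overlap, the 10 smallest p, up to 4 called members per list (2 of smallest p where none passed, not all printed), 13 followed genes and the 8 widest in CPB+Nitrite. The 8 widest were taken among genes with a symbol and a mean of at least 10 CPM over all 12 libraries. The members and lists were chosen with earlier results of these data known. Promoters are from RefSeq (GRCr8), another build than that of the files. Totals of 16.8 to 25.8 M reads per library limit the precision of genes under about 1 CPM.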

Additional observations from a re-analysis of the deposited data

Results flagged for a closer look

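Within each group of 4 libraries, the highest and lowest value of the 113 genes named here was set against the nearest other value. In 30 of 226 groups 1 library stood apart, with a gap beyond the 95% critical value of Dixon's test, where chance flags about 1 in 20 groups of normally distributed values. The values were CPM without logarithms and their distribution was not tested, so that rate may not hold for them. Genes were chosen with results known and share libraries, so these are not independent. CPB+Nitrite 1 stood apart in Acod1 (16.8 CPM, median of the other 3 1.47), Cp (147.0 CPM, median of the other 3 90.2), Fgb (1121 CPM, median of the other 3 29.6) and Fgg (204.9 CPM, median of the other 3 4.41). So it did in RGD1305184 (27.1 CPM, median of the other 3 0.953). CPB+Nitrite 2 stood apart in Hba-a1 (4151 CPM, median of the other 3 172.4), Hbb (3542 CPM, median of the other 3 149.6), Ngp (6.05 CPM, median of the other 3 0.93) and Nrip3 (420.0 CPM, median of the other 3 4.9). CPB+Nitrite 3 stood apart in Icam1 (38.4 CPM, median of the other 3 170.6), Kcnj10 (49.9 CPM, median of the other 3 8.4), Map3k6 (17.7 CPM, median of the other 3 33.8) and Slc2a4 (10.9 CPM, median of the other 3 2.98). So it did in Slc7a13 (1602 CPM, median of the other 3 741.0) and Wnk1 (293.2 CPM, median of the other 3 126.1). CPB+Nitrite 4 stood apart in Hspa1a (33.2 CPM, median of the other 3 0.735) and Hspa1b (16340 CPM, median of the other 3 309.5). sham 2 stood apart in Gal3st1 (40.8 CPM, median of the other 3 19). sham 3 stood apart in Birc3 (19.3 CPM, median of the other 3 7.34), Cxcl3 (0.327 CPM, median of the other 3 0.0372) and Fosb (1.15 CPM, median of the other 3 0.483). So it did in Fosl1 (3.39 CPM, median of the other 3 0.484), Gadd45a (210.3 CPM, median of the other 3 115.9), Havcr1 (26.5 CPM, median of the other 3 4.92) and Ifi27l2b (6.54 CPM, median of the other 3 4.5). So it did in Lcn2 (8.38 CPM, median of the other 3 0.483), Nfil3 (33.9 CPM, median of the other 3 7.44), Oasl (9.73 CPM, median of the other 3 2.94) and Plaur (8.46 CPM, median of the other 3 2.61). sham 4 stood apart in Rimbp2 (119.2 CPM, median of the other 3 95.8).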

How the results depend on the processing

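Against 565 genes called higher and 140 lower, there were 1434 and 710 with DESeq2, 1599 and 1271 with weighted limma voom, 0 and 0 in a fit of the 8 libraries alone (3262 at an unadjusted p under 0.05), and 0 and 0 when edgeR tested against a 1.5-fold change (1441 at an unadjusted p under 0.05); the cause was not tested. The share of calls that were higher was 80.1% with edgeR on all 12 libraries, 66.9% with DESeq2 and 55.7% with limma voom. Leaving out 1 library at a time gave 0 to 1620 genes higher and 0 to 1356 lower. Other scalings and filters gave 402 to 706 genes higher and 111 to 193 lower, within 1.5 times of the counts reported, and the median over all genes, 0.04 on the log2 scale, moved between -0.04 and 0.07. With the replicate number as a block, 27 genes were higher and 1 lower. Same-numbered sham and CPB+Nitrite libraries deviated from their group means with correlations of 0.08, 0.38, -0.11 and 0.04, so the numbers were not taken as pairs, and not every library correlated best with its own number. Of the 98 called genes with a symbol that the naming rule took, 98 remained called with DESeq2, 96 with limma voom, 92 on total counts alone, 14 with the block, 28 without CPB+Nitrite 1 and 0 without sham 2 or CPB+Nitrite 4. Hbb, at 1.22, reversed without CPB+Nitrite 2, with a range of -1.52 to 1.61 when 1 library was left out. Genes under about 1 CPM, such as Cxcl3, Ngp and Mmp3 in sham, rest on few reads.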
